A study of Mus musculus with 40 samples.

Results

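The genes described here encode 10 enzymes that carry sulfur and methyl groups through the liver: Mat1a, Mat2a, Gnmt, Pemt, Ahcy, Bhmt, Cbs, Cth, Cdo1 and Csad. They were taken by symbol from the 24499 genes in the deposited count files, and all 10 were among the 14355 genes with enough reads to be tested. The least-read gene in any library, Mat2a, still had 655 reads. Together these genes held between 0.653% and 1.70% of the reads counted on genes in a library.

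Liver RNA from adult male C57BL/6 mice was sequenced as polyadenylated RNA in 40 libraries of 8 groups. Mice first ate a diet labelled BD or a diet with DDC (0.05% w/w), a porphyrin-raising compound that injures bile ducts and produces ductular reaction and fibrosis. Control 0D (BD, n = 4) and DDC 0D (DDC, n = 4) had no second treatment. After BD came BD again (Control 28D, n = 5), a diet labelled HFD (HFD, n = 6) or HFD with ethanol (EtOH, n = 4). After DDC came BD (DDC+Cont, n = 5), HFD (DDC+HFD, n = 6) or HFD with ethanol (DDC+EtOH, n = 6). A gastric tube delivered the ethanol, at doses reaching 27 g/kg daily over as long as 28 days. BD and HFD are names from the labels, which leave them unexplained. The groups without a second treatment were sampled at another stage than the rest, so between those sets stage and second treatment cannot be told apart. Each animal's number is its own, so libraries are named below by group and that replicate number. The p-values of single genes weigh a group difference against the spread between libraries. That spread was estimated from all 40 libraries unless another setting is named.

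The methionine cycle joins methionine to ATP to make S-adenosylmethionine, the methyl donor of the cell. Methyl transfer leaves S-adenosylhomocysteine, which is split to homocysteine. Homocysteine is either remade into methionine or passed down the transsulfuration route to cysteine, from which the liver makes glutathione and taurine. The liver is the main site of this cycle, and it joins taurine to bile acids. Mat1a makes the methionine adenosyltransferase of mature hepatocytes, and Mat2a makes the form found in most other tissues and in dividing or dedifferentiated hepatocytes.

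Levels are given in CPM, read counts on genes divided by library totals that the TMM method rescales, as mean ± SD. Differences are log2 fold changes ± SE from edgeR's quasi-likelihood test, two-sided, fitted on all 40 libraries, and a gene is called changed where the Benjamini-Hochberg adjusted p over the 14355 genes was under 0.05. Reads on genes ran from 7197939 to 26398061 per library, and no 2 libraries held identical counts. DDC 0D libraries had TMM factors of 1.22 to 1.23 and Control 0D libraries of 0.942 to 0.989, so values of DDC 0D depend on that scaling. In 7 libraries, transcripts of 8 pancreatic digestive enzymes summed to over 1000 CPM: HFD replicate 14, DDC+Cont replicate 24, DDC+HFD replicates 30, 33 and 36, and DDC+EtOH replicates 38 and 41. These are bulk samples, so fewer cells of a type and less RNA per cell cannot be told apart.

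Promoter sequence is shown for 4 of the genes because they stand for the response types described below: Mat2a, which was highest with ethanol, Bhmt, whose lowest group means were those of DDC 0D and DDC+EtOH, and Gnmt and Cbs, which fell with DDC and returned. The letters are the 150 bases before the RefSeq start site (GRCm38.p6, minus strand, read 5′ to 3′). Mat2a lies at chr6:72439557-72439706, Bhmt at chr13:93637759-93637908, Gnmt at chr17:46729166-46729315 and Cbs at chr17:31637206-31637355. Capitals mark matches to 8 motifs searched on both strands.
Mat2a: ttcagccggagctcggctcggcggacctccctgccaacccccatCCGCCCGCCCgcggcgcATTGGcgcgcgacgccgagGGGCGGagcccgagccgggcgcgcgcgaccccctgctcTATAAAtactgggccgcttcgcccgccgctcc
Bhmt: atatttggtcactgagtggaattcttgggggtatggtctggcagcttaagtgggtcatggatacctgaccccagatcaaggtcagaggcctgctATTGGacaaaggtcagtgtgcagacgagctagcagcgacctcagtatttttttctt
Gnmt: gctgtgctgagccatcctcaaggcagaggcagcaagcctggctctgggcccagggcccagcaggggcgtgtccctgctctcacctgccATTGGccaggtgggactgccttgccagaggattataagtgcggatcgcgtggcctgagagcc
Cbs: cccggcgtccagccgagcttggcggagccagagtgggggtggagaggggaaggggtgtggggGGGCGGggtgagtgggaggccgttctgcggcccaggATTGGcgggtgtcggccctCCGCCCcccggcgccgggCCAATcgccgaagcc

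The motifs were the TATA box (TATAAA), the CCAAT box (CCAAT), the GC box (GGGCGG), a C/EBP site (TTGCNNAA), an HNF4 site (CAAAGTCCA), an HNF1 site (GTTAAT), the antioxidant response element (TGACNNNGC) and the E-box (CACGTG). Mat1a and Cth had no window available, and Cdo1, on chromosome 18, was left out of the scan. Windows were scanned for the other 7 of the 10 genes (Ahcy, Mat2a, Pemt, Bhmt, Csad, Cbs and Gnmt), 9 windows in all because Pemt and Csad have 2 start sites each. A TATA box stood in the Mat2a window alone among these 9, at positions −32 to −27, with 3 GC boxes, of which 2 overlap, and a CCAAT box at −89 to −85. Of all 32851 windows of the same length, 12.4% held a TATA box and 32.7% a GC box. A CCAAT box was found within 250 bases in at least 1 window of each of the 7 genes, and within the last 100 bases in 5 of 7. Pemt and Csad each held it in only 1 of their 2 windows. Counted per window and not per gene, 33.8% of all windows held it within 250 bases and 18.9% within the last 100. The CCAAT match lay at −56 to −52 in Bhmt, at −62 to −58 in Gnmt and at −15 to −11 and −52 to −48 in Cbs. The other members' matches were a CCAAT box at −237 to −233 and a GC box at −41 to −36 in Ahcy, a CCAAT box at −248 to −244 in Pemt, and a CCAAT box at −75 to −71 in 1 Csad window and a GC box at −72 to −67 in the other. Cbs also held an E-box at −229 to −224, a motif in 6.02% of windows. No C/EBP, HNF4, HNF1 or antioxidant response motif was matched in these windows, against 9.56%, 0.384%, 6.43% and 10.2% of all windows. The RefSeq starts of Bhmt and of the Csad window that held the CCAAT box did not match a GENCODE transcript start.

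In GENCODE vM21 (GRCm38), all 10 genes are protein coding. Mat1a lies on chromosome 14 (41105035 to 41124412), Mat2a on 6 (72432799 to 72439558), Bhmt on 13 (93616675 to 93637961), Gnmt on 17 (46725664 to 46729168) and Ahcy on 2 (155059310 to 155074497). Cbs lies on chromosome 17 (31608894 to 31637238), Cth on 3 (157894248 to 157925077), Pemt on 11 (59970614 to 60046489), Csad on 15 (102176999 to 102204724) and Cdo1 on 18 (46713193 to 46728395). Mat1a is on the plus strand and the other 9 on the minus strand. Bhmt and Ahcy each overlap an annotated antisense transcript, Mat2a, Gnmt and Cth overlap other noncoding transcripts, and Csad overlaps the protein-coding Zfp740 on the other strand. Without the strand setting of the counting, reads from such overlaps cannot be told apart.

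Per kilobase of exon, the Control 0D livers carried Gnmt at 1589 CPM per kb, Mat1a at 912, Bhmt at 911, Cdo1 at 799 and Ahcy at 497. The lower levels were Cth at 293 CPM per kb, Csad at 173, Pemt at 111, Cbs at 67.6 and Mat2a at 21.8. Mat1a thus stood far above Mat2a on this scale in the untreated liver. Across the 8 group means, CPM spanned most for Csad (5.75-fold), Bhmt (3.63-fold), Ahcy (2.70-fold) and Cth (2.68-fold), and least for Mat1a (1.65-fold) and Pemt (1.30-fold).

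**Figure D1:**
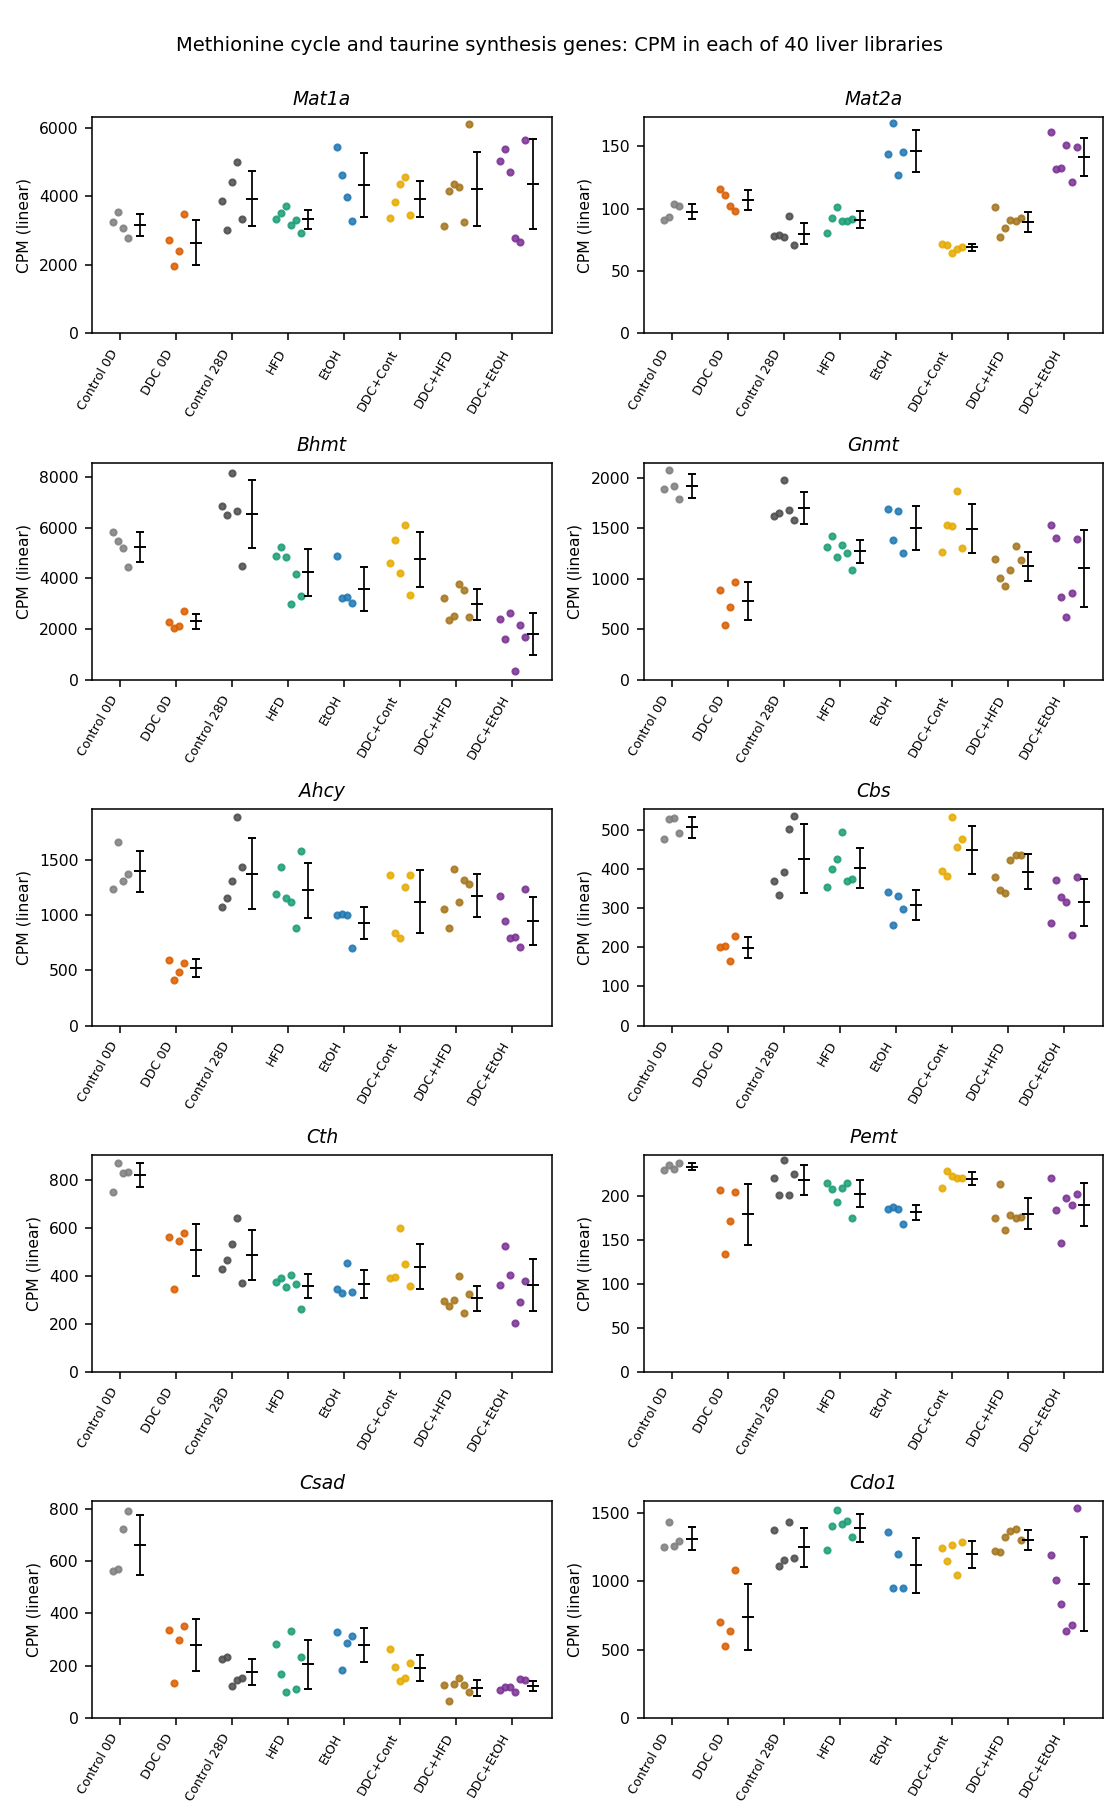
CPM (linear axis from 0) of each gene in the 40 libraries (points, 1 colour per group), with the group mean ± SD as the black mark beside the points. Mat2a stands highest in the groups given ethanol, Csad highest in Control 0D, and Gnmt, Ahcy and Cbs lowest in DDC 0D.

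Most of the pathway was lower after DDC feeding alone. Against Control 0D, 8 of the 10 genes were called lower in DDC 0D and 0 higher, where 52.0% of all genes tested were called (24.5% lower). The median log2 fold change of the 10 was −1.01, and that of all tested genes was 0.01. Groups did not overlap for 8 genes (49.8% of all genes). The genes not called were those that make S-adenosylmethionine, Mat1a (−0.26 ± 0.21, adjusted p = 0.316) and Mat2a (0.13 ± 0.09, adjusted p = 0.259).

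Ahcy, the hydrolase that splits S-adenosylhomocysteine, stood at 1238, 1658, 1311 and 1372 CPM in the Control 0D replicates 1 to 4 and at 594, 415, 487 and 570 CPM in the DDC 0D replicates 5 to 8. Every DDC 0D library was below every Control 0D library. The log2 fold change was −1.43 ± 0.20 (adjusted p = 1.86e-07), a level 37.0% of the control. Cbs, which joins homocysteine to serine as cystathionine, stood at 477, 527, 530 and 490 CPM in Control 0D and at 202, 202, 164 and 229 CPM in DDC 0D. These groups were also apart, with a log2 fold change of −1.35 ± 0.15 (adjusted p = 1.24e-09).

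Gnmt, the abundant methyltransferase that uses surplus S-adenosylmethionine on glycine, read 1890, 2071, 1918 and 1786 CPM in Control 0D and 884, 541, 723 and 963 CPM in DDC 0D (log2 fold change −1.30 ± 0.19, adjusted p = 4.47e-07). Bhmt, which remethylates homocysteine with betaine, read 5825, 5493, 5212 and 4446 CPM in Control 0D and 2289, 2053, 2116 and 2727 CPM in DDC 0D (−1.19 ± 0.31, adjusted p = 0.00163). For both genes all DDC 0D libraries lay below all Control 0D libraries. Csad, the decarboxylase that turns cysteine sulfinate toward taurine, read 561, 571, 722 and 794 CPM in Control 0D and 334, 133, 296 and 353 CPM in DDC 0D (−1.25 ± 0.31, adjusted p = 0.00115).

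Smaller decreases were seen for Cdo1, Cth and Pemt. Cdo1, the dioxygenase that commits cysteine to sulfinate, stood at 736 ± 242 CPM in DDC 0D and 1313 ± 86.3 CPM in Control 0D (−0.83 ± 0.18, adjusted p = 0.000239). Cth, which cleaves cystathionine to cysteine, stood at 508 ± 109 CPM and 818 ± 51.0 CPM (−0.69 ± 0.20, adjusted p = 0.00395). Pemt, which methylates phosphatidylethanolamine to phosphatidylcholine, stood at 179 ± 34.3 CPM and 234 ± 3.99 CPM (−0.38 ± 0.10, adjusted p = 0.00234). All 8 calls held when any of the 8 libraries was left out. With library totals and no scaling factor, a setting chosen after seeing the data that moved the median of all genes to 0.36, 6 were called lower and 1 higher: Cth (−0.33, adjusted p = 0.153) and Pemt (−0.03, adjusted p = 0.827) were no longer called, Mat2a was (0.48, adjusted p = 1.84e-05), and Mat1a turned from −0.26 to 0.10 without a call.

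Markers of cell types moved in the same comparison, and their part in these results was not tested. Of 20 hepatocyte identity genes, 17 were called lower and 0 higher (median log2 fold change −0.70), and their summed level was 99807 to 112100 CPM in DDC 0D and 138500 to 152640 CPM in Control 0D. Of 13 pericentral hepatocyte genes, 9 were lower and 1 higher (median −1.31), and of 12 periportal genes 6 were lower and 1 higher (median −0.90). Bile duct markers (11 of 12 higher) summed to 968 to 1143 CPM in DDC 0D and 45.5 to 59.3 CPM in Control 0D. Macrophage markers (11 of 12 higher) summed to 1261 to 1702 CPM and 330 to 519 CPM, and stellate cell and myofibroblast markers (11 of 12 higher) to 1206 to 1413 CPM and 360 to 401 CPM.

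**Figure D2:**
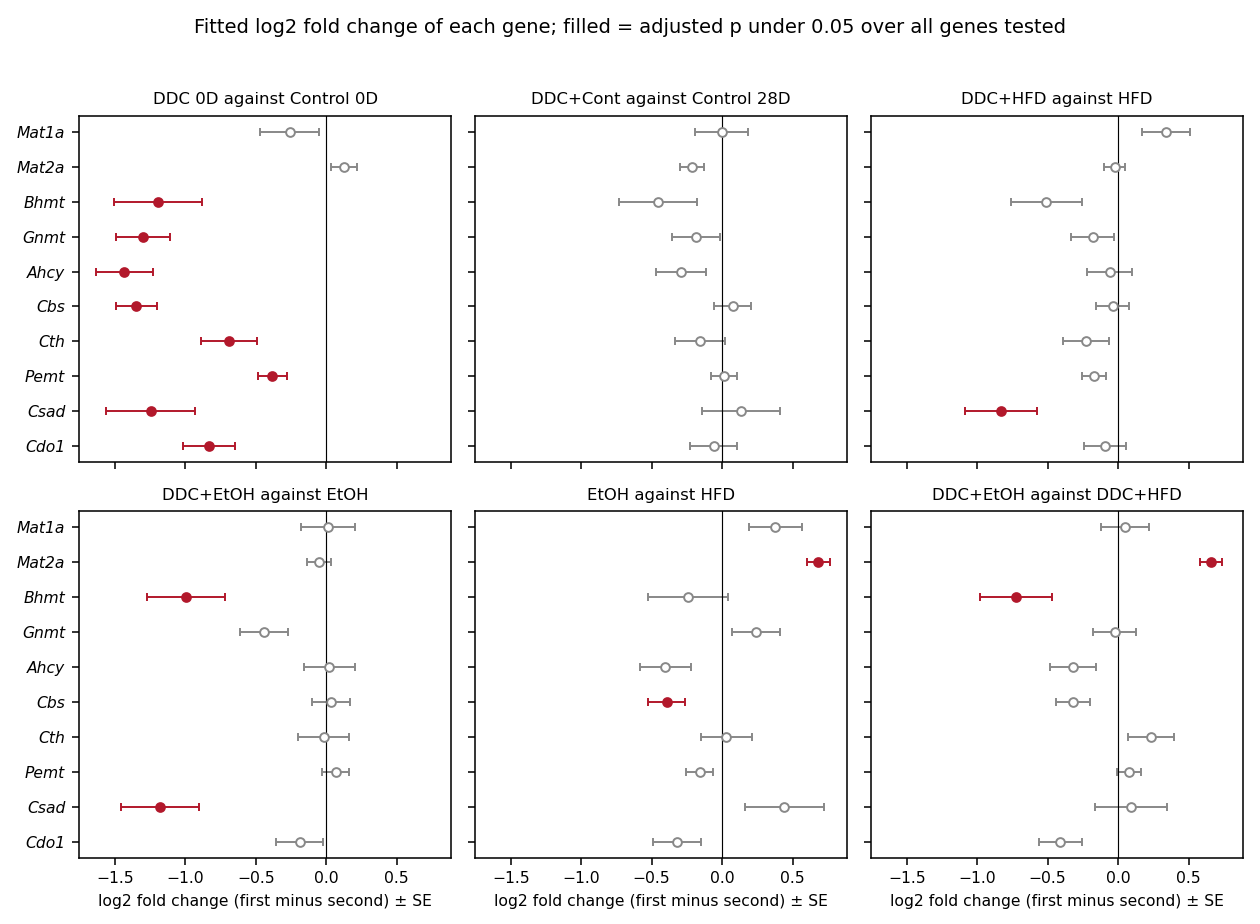
Fitted log2 fold change (first group minus second) ± SE of each gene in 6 comparisons; filled red points have an adjusted p under 0.05 over all genes tested. In DDC 0D 8 of 10 genes are filled below 0, in DDC+Cont against Control 28D no point is filled, and Mat2a stands near 0.68 and 0.66 where ethanol was added.

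Most of these genes were higher again in the livers that ate BD after DDC. Against DDC 0D, the same 4 libraries as in the comparison above, 7 genes were called higher in DDC+Cont and 1 lower (43.4% of all genes were called, 20.2% higher and 23.2% lower). Cbs stood at 395, 383, 532, 455 and 477 CPM in DDC+Cont, above every DDC 0D library (1.17 ± 0.14, adjusted p = 2.04e-08). Ahcy rose by 1.12 ± 0.19 (log2 scale, adjusted p = 1.10e-05), Bhmt by 1.05 ± 0.30 (0.00457), Gnmt by 0.94 ± 0.18 (6.07e-05) and Cdo1 by 0.70 ± 0.18 (0.00135). Mat1a rose by 0.56 ± 0.20 (0.0211) and Pemt by 0.30 ± 0.10 (0.0150).

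Mat2a was the gene called lower, at 71.8, 70.7, 64.7, 67.9 and 69.2 CPM in DDC+Cont and 116, 111, 102 and 98.1 CPM in DDC 0D (−0.63 ± 0.09, adjusted p = 3.22e-07). Cth (−0.21 ± 0.19, adjusted p = 0.373) and Csad (−0.54 ± 0.29, adjusted p = 0.139) were not called. With library totals alone, where the median of all genes moved to −0.30, the split was 5 higher and 3 lower: Mat1a lost its call (0.26), Pemt turned to −0.00 (adjusted p = 0.989), and Cth (−0.52) and Csad (−0.83) were called lower. Leaving out DDC 0D replicate 6 or 7 or DDC+Cont replicate 28 also ended the Mat1a call (adjusted p 0.0532 to 0.0996). Without DDC 0D replicate 6 the Pemt call was lost (adjusted p = 0.139), as it was in a fit of these 2 groups alone (0.0585), and Csad was called lower (−0.77, adjusted p = 0.0358).

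Cell type markers moved in this comparison too, and their part in these results was not tested. Of the 20 hepatocyte identity genes 15 were higher and 0 lower (median log2 fold change 0.57), summing to 121910 to 158430 CPM in DDC+Cont. Of the 13 pericentral genes 10 were higher, and of the 12 periportal genes 7 were higher and 1 lower. Bile duct markers (10 of 12 lower, median −2.99) summed to 100.1 to 147 CPM in DDC+Cont, macrophage markers (9 of 12 lower) to 638 to 892 CPM, and stellate cell and myofibroblast markers (12 of 12 lower) to 395 to 526 CPM, all below the DDC 0D range.

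Between DDC+Cont and Control 28D, which both ended on BD, 0 of the 10 genes were called by edgeR, 1 gene had an unadjusted p under 0.05 (Mat2a, −0.22 ± 0.08, adjusted p = 0.245), and DESeq2 also called 0 (1.52% of all genes were called). Bhmt differed by −0.46 ± 0.28 (log2 scale), and the 95% intervals of the log2 fold change were −0.64 to 0.06 for Ahcy, −0.52 to 0.14 for Gnmt and −0.18 to 0.33 for Cbs. The DDC difference itself changed between the stages for 7 genes, where 32.1% of all genes were called (14.5% positive and 17.6% negative). The interaction was positive for Cbs (1.42 ± 0.20, adjusted p = 7.58e-07), Csad (1.38 ± 0.42, 0.0106), Ahcy (1.14 ± 0.27, 0.00100), Gnmt (1.12 ± 0.25, 0.000792), Cdo1 (0.77 ± 0.25, 0.0142) and Pemt (0.39 ± 0.14, 0.0283). It was negative for Mat2a (−0.34 ± 0.13, 0.0324). Without DDC 0D replicate 6, 4 of the 7 calls were left, those of Cbs, Csad, Ahcy and Gnmt, with Cdo1 at an adjusted p of 0.0503, Mat2a at 0.0588 and Pemt at 0.108. Leaving out Control 28D replicate 12, DDC+Cont replicate 26, Control 0D replicate 1 or 2 or DDC 0D replicate 5 ended the Mat2a call too (adjusted p 0.0508 to 0.109), and leaving out Control 28D replicate 10 or 12 ended that of Pemt (0.0503 and 0.0512). With library totals alone the Pemt interaction moved from 0.39 to 0.13 (adjusted p = 0.490) and that of Cdo1 to 0.51 (0.0783), neither called. With lane as a term the calls of Pemt (0.0809) and Mat2a (0.0888) were lost, and with no low-count filter that of Mat2a (0.128). Bhmt (0.73 ± 0.42, adjusted p = 0.180) was called in a fit of these 4 groups alone (0.0168) and without the libraries with pancreatic RNA (0.0451).

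Csad and Cth fell between the stages in livers that never received DDC. Of the 10 genes, 2 were called lower in Control 28D than in Control 0D and 0 higher (2.46% of all genes were called, 0.836% lower). Csad stood at 225, 232, 121, 144 and 154 CPM in the 5 Control 28D libraries, all below the lowest Control 0D library at 561 CPM, with a log2 fold change of −1.92 ± 0.30 (adjusted p = 0.000313), or 26.4% of the Control 0D level. Cth stood at 426, 466, 531, 641 and 371 CPM in Control 28D and at 747 to 868 CPM in Control 0D (−0.75 ± 0.19, adjusted p = 0.0216). The Csad call held with each library left out, whereas the Cth call was lost without Control 0D replicate 2, 3 or 4 or Control 28D replicate 9 or 13 (adjusted p 0.0556 to 0.0776). Mat2a, at −0.29 ± 0.09 (adjusted p = 0.0714), was called lower without Control 28D replicate 12 (−0.35, adjusted p = 0.0264), by DESeq2 (adjusted p = 0.0422), with lane as a term (0.0388), without the libraries with pancreatic RNA (0.0455) and with library totals alone (0.0335). For Csad, the positive interaction set out above sets a DDC difference of −1.25 at the first stage beside 0.14 ± 0.28 at the later stage, where both groups were low.

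Mat2a rose with ethanol after either first diet. Its level was 143, 168, 127 and 145 CPM in EtOH, and in HFD it ran from 80.3 through a median of 90.6 to 102 CPM. The lowest EtOH library was above the highest HFD library, with a log2 fold change of 0.68 ± 0.08 (adjusted p = 2.26e-07). After DDC, the 6 DDC+EtOH libraries ran from 121 through 141 to 161 CPM and the 6 DDC+HFD libraries from 77.0 through 90.5 to 101 CPM, again with no overlap (0.66 ± 0.08, adjusted p = 8.23e-08). Both differences were called with every library left out in turn and in every other setting tried. Against the BD-fed groups, Mat2a was higher in EtOH than in Control 28D (0.87 ± 0.09, adjusted p = 2.73e-09) and in DDC+EtOH than in DDC+Cont (1.04 ± 0.08, adjusted p = 6.36e-12). These comparisons share the ethanol groups with the ones before.

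No difference in that response by earlier diet was detectable. The difference between the ethanol effects after DDC and after BD was −0.03 ± 0.11 for Mat2a (95% interval −0.25 to 0.20), and DDC+EtOH stood at 96.6% of EtOH (interval of the log2 fold change −0.22 to 0.12). For this interaction edgeR called 0 of the 10 genes and 0% of all genes, 0 of the 10 had an unadjusted p under 0.05, and DESeq2 called 0 of the 10. The intervals for the other genes were wide, from −1.23 to 0.25 for Bhmt and −1.09 to 0.40 for Csad.

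Of the 10 genes, 1 was called higher and 1 lower in EtOH against HFD (13.5% of all genes were called, 7.84% higher and 5.61% lower), and 1 higher and 1 lower in DDC+EtOH against DDC+HFD (16.5% of all genes, 8.53% higher and 8.02% lower). The lower genes were Cbs in the first and Bhmt in the second. Cbs stood at 342, 257, 331 and 297 CPM in EtOH and at 354 to 494 CPM in HFD (−0.39 ± 0.13, adjusted p = 0.0439). That call was lost without HFD replicate 15, 16 or 17 or EtOH replicate 21 or 23 (adjusted p 0.0596 to 0.178), with no low-count filter (0.0506) and with library totals alone (0.0689). After DDC, Cbs stood at 314 ± 59.0 CPM with ethanol and 393 ± 44.4 CPM without (−0.32 ± 0.12, adjusted p = 0.0576), and was called lower by DESeq2 (0.0484) and without DDC+HFD replicate 32 or 33 or DDC+EtOH replicate 39 or 43 (0.0256 to 0.0451). Cdo1 after DDC stood at 981 ± 343 CPM with ethanol and 1304 ± 71.9 CPM without (−0.41 ± 0.15, adjusted p = 0.0556), and was called lower by DESeq2 (0.0451), with lane as a term (0.0422) and without DDC+EtOH replicate 38 (0.0381) or 43 (0.00256). In EtOH against HFD Cdo1 (−0.32 ± 0.17, adjusted p = 0.224) was called in a fit of the 2 groups alone (0.0396).

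Bhmt had its lowest group mean where DDC and ethanol were combined. The 6 DDC+EtOH libraries read 2401, 1604, 2621, 325, 2162 and 1697 CPM (replicates 38 to 43), and replicate 41 alone was under 1000 CPM. DDC+HFD ran from 2355 through 2859 to 3789 CPM, so the groups overlapped (−0.73 ± 0.25, adjusted p = 0.0445). The call was lost without DDC+HFD replicate 30, 35 or 36 or DDC+EtOH replicate 39 or 43 (adjusted p 0.0641 to 0.0947) and without the 7 libraries with pancreatic RNA, replicate 41 among them (−0.51, adjusted p = 0.158). It was also lost with no low-count filter (0.0738), with library totals alone (0.0779) and in a fit of these 2 groups alone (0.259).

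Bhmt was also compared with the livers on BD. DDC+Cont read 4623, 5505, 4225, 6121 and 3340 CPM, all above every DDC+EtOH library (−1.40 ± 0.27, adjusted p = 0.000152), and this call held with each library left out. In the livers without DDC, Control 28D read 6873, 6502, 8178, 6679 and 4479 CPM and EtOH 4879, 3212, 3248 and 3027 CPM. They overlapped through EtOH replicate 20 and Control 28D replicate 13 (−0.87 ± 0.30, adjusted p = 0.0387). That call was lost without Control 28D replicate 9, 10, 11 or 12 or EtOH replicate 21, 22 or 23 (adjusted p 0.0558 to 0.105), with sequencing lane as a term (0.0926), with no low-count filter (0.0621) and with library totals alone (0.0651). HFD alone (4240 ± 925 CPM) lay between, with no call against Control 28D (−0.63 ± 0.26, adjusted p = 0.421), and EtOH was not called against HFD (−0.24 ± 0.28, adjusted p = 0.641).

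In EtOH against Control 28D, 1 gene was called higher and 3 lower (18.2% of all genes were called, 9.99% higher and 8.20% lower). Beside Mat2a and Bhmt these were Ahcy, at 1000, 1005, 996 and 706 CPM in EtOH and 1069 to 1885 CPM in Control 28D (−0.56 ± 0.19, adjusted p = 0.0321), and Cbs (−0.47 ± 0.14, adjusted p = 0.0138). The Ahcy call was lost without Control 28D replicate 12 or 13 or EtOH replicate 23 (adjusted p 0.0571 to 0.124) and with lane as a term (0.0540), and the Cbs call without Control 28D replicate 13 (0.0594) or EtOH replicate 21 (0.0690). Pemt, whose EtOH libraries (168 to 187 CPM) lay below all Control 28D libraries (202 to 242 CPM), reached −0.27 ± 0.10 (adjusted p = 0.0579), and was called by DESeq2 (0.0428), in a fit of the 2 groups alone (0.0287) and without Control 28D replicate 12 (0.0491).

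In DDC+EtOH against DDC+Cont, 1 gene was again called higher and 3 lower (23.6% of all genes were called, 12.4% higher and 11.2% lower). Cbs fell by 0.51 on the log2 scale (SE 0.12, adjusted p = 0.00212) and its groups did not overlap, at 231 to 379 CPM and 383 to 532 CPM. Gnmt, at 618 through 1125 to 1528 CPM in DDC+EtOH and 1259, 1526, 1519, 1869 and 1303 CPM in DDC+Cont, was called lower (−0.44 ± 0.16, adjusted p = 0.0428). The Gnmt call was lost without DDC+Cont replicate 25, 26 or 28 or DDC+EtOH replicate 40, 41 or 42 (adjusted p 0.0624 to 0.144), with no low-count filter (0.0518), with library totals alone (0.0616) and in a fit of the 2 groups alone (0.198). Pemt (adjusted p = 0.0842) was called lower without DDC+EtOH replicate 38 (0.0376) and without the libraries with pancreatic RNA (0.0390), Cdo1 (0.187) without replicate 43 (0.0152), and Csad (−0.65 ± 0.27, adjusted p = 0.0722) in a fit of the 2 groups alone (0.0185).

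Markers also differed in the ethanol comparisons, and their part in these results was not tested. Of 13 pericentral genes, 3 were higher and 4 lower in EtOH against HFD, and 3 were higher and 5 lower in DDC+EtOH against DDC+HFD. Their summed level was 4189 to 8973 CPM in DDC+EtOH, 7288 to 10179 CPM in DDC+HFD, 6398 to 8856 CPM in EtOH and 9130 to 11839 CPM in HFD. Of 20 hepatocyte identity genes, 2 were lower and 0 higher in EtOH against HFD, and 3 were lower and 1 higher in DDC+EtOH against DDC+HFD. Of 12 stellate cell and myofibroblast markers 2 and 4 were higher in these comparisons, and of 12 macrophage markers 1 was higher in the first and 3 were higher and 1 lower in the second.

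Against the BD-fed groups the markers differed as well. In DDC+EtOH against DDC+Cont, 8 of 12 stellate cell and myofibroblast markers were higher (summed level 454 to 754 CPM and 395 to 526 CPM), 4 of 12 macrophage markers were higher (795 to 1378 CPM and 638 to 892 CPM), and 4 pericentral genes were higher and 6 lower (4189 to 8973 CPM and 5962 to 9381 CPM). Of the hepatocyte identity genes there, 1 was higher and 4 lower. In EtOH against Control 28D, 4 pericentral genes were higher and 6 lower, 5 hepatocyte identity genes were lower and 0 higher, and 2 of 12 macrophage and 2 of 12 stellate cell and myofibroblast markers were higher. Their part in these results was not tested.

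HFD by itself gave no call among the 10 genes without DDC. Against Control 28D, edgeR and DESeq2 each called 0 of 10, while edgeR called 0.376% of all genes. In edgeR 4 of the 10 had an unadjusted p under 0.05 (Mat2a, Bhmt, Gnmt and Cth). The share of all genes at that unadjusted threshold is not given, so this count cannot be weighed against it. Gnmt lay at 1081 through 1288 to 1419 CPM in HFD, below every Control 28D library (1577 to 1972 CPM), with a log2 fold change of −0.42 ± 0.16 (adjusted p = 0.341), and was called in a fit of these 2 groups alone (0.0377). After DDC, Mat2a was called higher in DDC+HFD than in DDC+Cont (0.38 ± 0.08, adjusted p = 0.00693), with no overlap between the groups, as 1 of 10 genes (3.40% of all genes were called, 1.87% higher). In that comparison Pemt (−0.29 ± 0.09, adjusted p = 0.0595) was called lower without DDC+HFD replicate 32 (0.0265), by DESeq2 (0.0338) and with library totals alone (0.0441), which made the split 1 higher and 1 lower. Cth (−0.52 ± 0.17, adjusted p = 0.0797) was called lower without DDC+HFD replicate 35 (0.0464).

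Csad was lower in DDC-fed livers that later received HFD, with or without ethanol, than in those fed BD first. In DDC+HFD Csad ran from 63.1 through 125 to 152 CPM and in HFD from 99.4 through 200 to 333 CPM, as the only called gene of the 10 (−0.83 ± 0.26, adjusted p = 0.0269, where 13.5% of all genes were called and 5.49% were lower). In DDC+EtOH it ran from 98.6 through 119 to 147 CPM, below the EtOH libraries at 329, 183, 286 and 312 CPM (−1.18 ± 0.28, adjusted p = 0.00851). The second call held with each library left out. The first was lost without HFD replicate 14 or 17 or DDC+HFD replicate 32 or 37 (adjusted p 0.0534 to 0.110), with lane as a term (0.0714), without the libraries with pancreatic RNA (0.111) and in a fit of the 2 groups alone (0.117).

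In DDC+EtOH against EtOH, 0 genes were called higher and 2 lower, Csad and Bhmt (6.69% of all genes were called, 2.57% lower). Bhmt stood at 1802 ± 823 CPM and 3592 ± 864 CPM with no overlap, and it fell by 1.00 on the log2 scale (SE 0.28, adjusted p = 0.0237). The Bhmt call was lost without EtOH replicate 20 (0.122) or DDC+EtOH replicate 39 (0.0533) and in a fit of these 2 groups alone (0.285). Gnmt (−0.44 ± 0.17, adjusted p = 0.108) was called lower without DDC+EtOH replicate 38 (−0.56, 0.0300). In the same comparison 6 of 12 bile duct, 5 of 12 macrophage and 5 of 12 stellate cell and myofibroblast markers were higher, and their part in these results was not tested. In DDC+HFD against HFD 7 of 12 of each of these 3 lists were higher, and of the 20 hepatocyte identity genes 3 were lower and 1 higher.

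Ordered by group mean, Mat2a was highest in EtOH and DDC+EtOH (146 ± 17.0 and 141 ± 15.0 CPM), which did not differ beyond their spread, and next came DDC 0D (107 ± 8.01 CPM), with no overlap. Csad was highest in Control 0D (662 ± 115 CPM), followed by DDC 0D (279 ± 100 CPM) and EtOH (278 ± 65.3 CPM), and lowest in DDC+EtOH (123 ± 20.0 CPM) and DDC+HFD (115 ± 30.6 CPM). Bhmt was highest in Control 28D (6542 ± 1329 CPM), followed by Control 0D, DDC+Cont, HFD, EtOH, DDC+HFD, DDC 0D and DDC+EtOH, and libraries of each neighbouring pair in that order overlapped. Mat1a ran from 2646 ± 649 CPM in DDC 0D to 4365 ± 1313 CPM in DDC+EtOH, with overlap between all neighbours.

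The balance of Mat1a to Mat2a within each library is free of the scaling between libraries. The log2 ratio of their read counts was 5.01 ± 0.22 in Control 0D, 4.60 ± 0.42 in DDC 0D, 5.60 ± 0.22 in Control 28D, 5.19 ± 0.12 in HFD, 4.87 ± 0.31 in EtOH, 5.82 ± 0.24 in DDC+Cont, 5.53 ± 0.40 in DDC+HFD and 4.89 ± 0.46 in DDC+EtOH. By exact permutation tests, two-sided and adjusted over 24 tests, it was lower in EtOH than in Control 28D (difference −0.73, p = 0.0159, adjusted p = 0.0476, no overlap) and in DDC+EtOH than in DDC+Cont (−0.93, p = 0.00433, adjusted p = 0.0317, no overlap). It was also lower in HFD than in Control 28D (−0.40, p = 0.00649, adjusted p = 0.0317, exact permutation test). Ethanol against HFD reached −0.32 (exact p = 0.0476, adjusted p = 0.0879), and after DDC −0.63 (exact p = 0.0303, adjusted p = 0.0661), neither past the threshold. The ratio was higher in DDC+Cont than in DDC 0D (1.22, exact p = 0.00794, adjusted p = 0.0317) and in Control 28D than in Control 0D (0.58, exact p = 0.0159, adjusted p = 0.0476).

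Cdo1 and Csad act in succession on the way to taurine. The log2 ratio of Cdo1 to Csad was 1.00 ± 0.29 in Control 0D and 2.87 ± 0.44 in Control 28D, a difference of 1.87 (exact permutation p = 0.00794, adjusted p = 0.0317). It was higher in DDC+Cont, at 2.67 ± 0.34, than in DDC 0D, at 1.44 ± 0.44 (1.23, exact p = 0.00794, adjusted p = 0.0317), and was higher in DDC+HFD, at 3.55 ± 0.40, than in DDC+Cont (0.88, exact p = 0.00216, adjusted p = 0.0317). None of these 3 pairs overlapped. It was 2.90 ± 0.80 in HFD, 2.03 ± 0.32 in EtOH and 2.95 ± 0.48 in DDC+EtOH. The difference of DDC+EtOH from EtOH was 0.92 (exact p = 0.0190, adjusted p = 0.0508). In DDC 0D against Control 0D neither ratio passed (exact p = 0.171 for each), and 4 libraries against 4 can give no p below 0.0286.

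**Figure D3:**
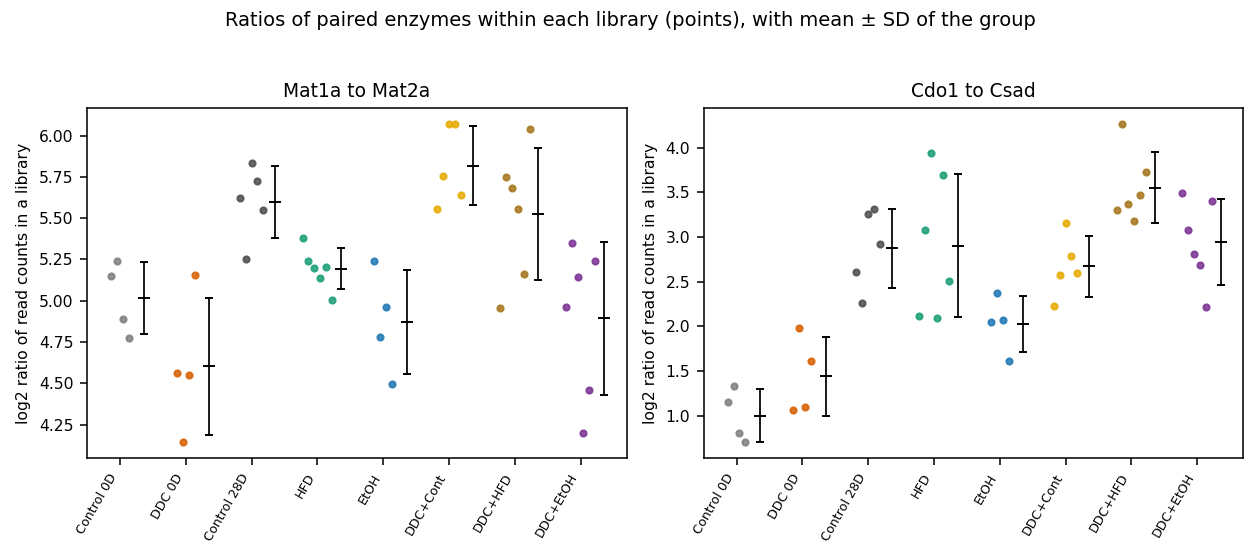
Log2 ratio of read counts of Mat1a to Mat2a and of Cdo1 to Csad in each library (points), with the group mean ± SD (black). The first ratio reaches 5.24 in EtOH and 5.35 in DDC+EtOH at most, below every library of Control 28D and DDC+Cont respectively but overlapping HFD, DDC+HFD, Control 0D and DDC 0D, and the second at or below 1.99 in every library of Control 0D and DDC 0D.

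Related genes were read in 6 lists around the cycle: betaine and choline, the folate cycle with methionine remaking, other methyltransferases and partners of S-adenosylmethionine, polyamines with methionine salvage, cysteine and sulfide breakdown, and taurine use and transport. Of their 84 genes, 82 were in the files and 80 were tested. In DDC 0D against Control 0D, 14 were higher and 42 lower, with a median log2 fold change of −0.38. Of all genes tested, 52.0% were called there (24.5% lower). The betaine and choline list had 1 higher and 11 lower of 14, the folate list 5 higher and 11 lower of 21, the methyltransferases 2 and 7 of 15, cysteine breakdown 1 and 7 of 12, taurine 1 and 3 of 6, and polyamines 4 and 3 of 12. The named examples were Inmt, a methyltransferase of small amines, at 103 ± 21.7 CPM and 655 ± 81.2 CPM (−2.67 ± 0.24), Kyat1, a cysteine conjugate lyase (−1.85 ± 0.13), Fpgs, which adds glutamates to folate (−1.79 ± 0.15), and Mthfd1l, a mitochondrial folate enzyme, at 13.6 ± 3.76 CPM and 1.13 ± 0.25 CPM (3.59 ± 0.37). In DDC+Cont against DDC 0D, 38 of the 80 were higher and 20 lower (20.2% and 23.2% of all genes tested). Among them were Inmt at 2.09 ± 0.23, Mthfd1l at −2.90 ± 0.33, Fpgs at 1.62 ± 0.14 and Chka, a choline kinase, at 1.72 ± 0.44.

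With ethanol, genes of cysteine and glutathione handling were among those that rose. In EtOH against HFD, 12 of the 80 related genes were higher and 10 lower (7.84% and 5.61% of all genes tested). In DDC+EtOH against DDC+HFD 17 were higher and 13 lower (8.53% and 8.02% of all genes tested). The cysteine breakdown list also holds the glutathione genes Gclc and Gss. Of its 12 tested genes, 3 were higher and 1 lower in the first comparison. The 3 higher and 0 lower in the second were again Gclc, Gss and Ethe1. Gclc, the catalytic subunit of glutamate cysteine ligase, rose from 422 ± 67.9 CPM to 1002 ± 333 CPM (1.25 ± 0.20, adjusted p = 2.31e-05), and after DDC from 278 ± 80.4 CPM to 608 ± 135 CPM (1.13 ± 0.18, adjusted p = 2.74e-05). Gss, glutathione synthetase, rose by 1.00 ± 0.13 and, after DDC, by 0.95 ± 0.12. Ethe1, the mitochondrial persulfide dioxygenase, rose by 1.26 ± 0.14 and, after DDC, by 0.96 ± 0.13. None of these 6 pairs of groups overlapped. Paox, a polyamine oxidase, was lower in EtOH than in HFD (−0.99 ± 0.22), and Mthfd1l was higher in DDC+EtOH than in DDC+HFD (1.29 ± 0.27), a call lost without the libraries with pancreatic RNA (1.11, adjusted p = 0.0528).

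The BD-fed references gave further values. Over all genes tested, 9.99% were higher and 8.20% lower in EtOH against Control 28D. In DDC+EtOH against DDC+Cont 12.4% were higher and 11.2% lower. In EtOH against Control 28D, 13 related genes were higher and 19 lower, with Gclc at 1.53 ± 0.21, Gss at 1.18 ± 0.14, Paox at −1.25 ± 0.22 and Dnmt3b, a DNA methyltransferase, at −1.27 ± 0.22. In DDC+EtOH against DDC+Cont, 13 were higher and 20 lower, with Mthfd1l at 2.11 ± 0.31, Dnmt3b at −1.41 ± 0.20 and Paox at −1.16 ± 0.20. Fewer moved elsewhere: 6 lower and 0 higher in DDC+HFD against DDC+Cont, 7 lower and 0 higher in DDC+EtOH against EtOH, 3 higher and 12 lower in DDC+HFD against HFD, 2 lower in Control 28D against Control 0D, 1 lower in DDC+Cont against Control 28D and 0 in HFD against Control 28D. Chpt1, which makes phosphatidylcholine from choline, was lower after DDC in both diets (−0.71 ± 0.16 in DDC+HFD against HFD and −0.93 ± 0.18 in DDC+EtOH against EtOH). Ethe1 (−0.50 ± 0.13 and −0.81 ± 0.14) and Gclc (−0.60 ± 0.18 and −0.72 ± 0.20) were also lower in these comparisons. Each of the Gclc calls was lost when some single libraries were left out. Over all genes tested, 13.5% were called in DDC+HFD against HFD (5.49% lower). The shares in DDC+EtOH against EtOH were 6.69% called and 2.57% lower.

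**Figure D4:**
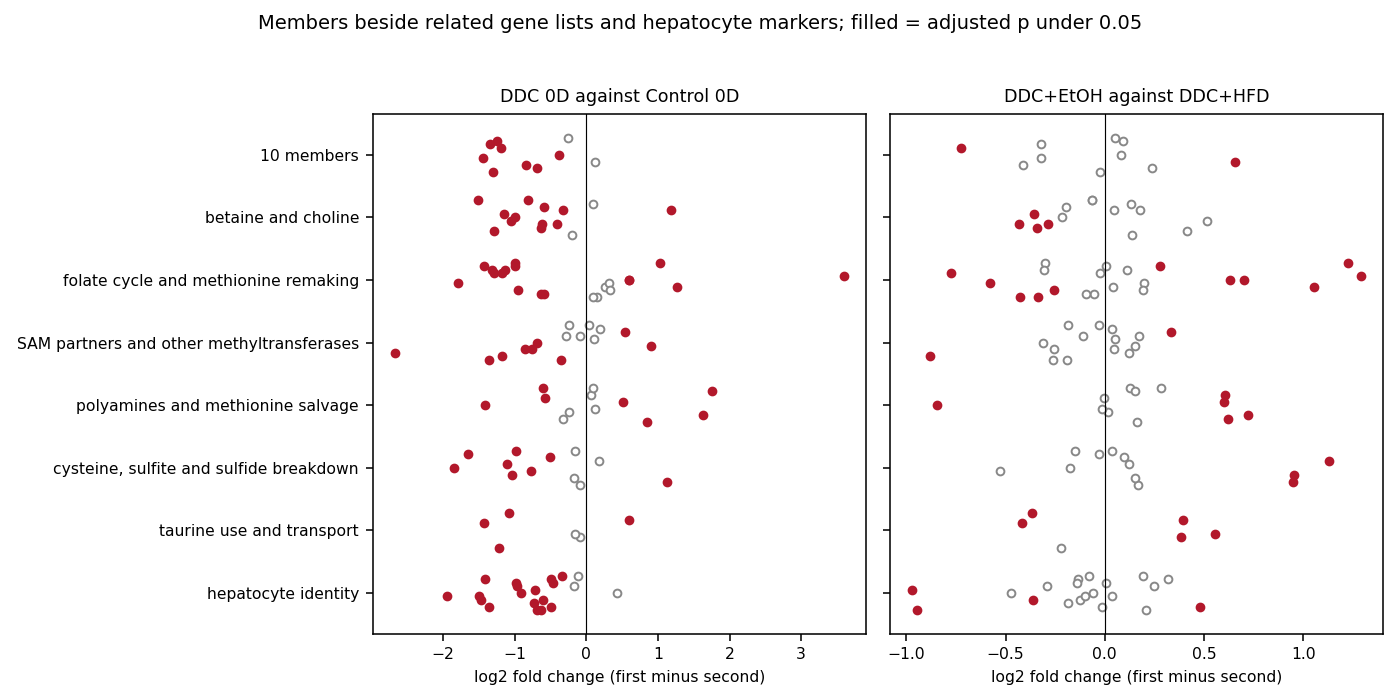
Log2 fold change (first group minus second) of the 10 genes, the 6 related lists and hepatocyte identity markers in DDC 0D against Control 0D and in DDC+EtOH against DDC+HFD; each point is a gene, filled where the adjusted p was under 0.05, and the vertical offset within a row has no meaning. In the first comparison 8 of the 10 genes and 42 of the 80 related genes are filled below 0.

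The genes whose group means ran most like 3 of the members were found by the root mean square difference of centred log2 group means over the 8 groups, among 9711 genes with a mean of at least 5 CPM. The members, genes with predicted or clone names, and Mup and immunoglobulin genes were left out of this search. Ahcy was matched closest by Ido2 (0.07), Mug1 (0.08) and Pm20d1 (0.08), Bhmt by Coq8a (0.22), Oat (0.23) and Nat8 (0.24), and Csad by Erbb4 (0.39), Cyp3a25 (0.46) and Hspa1b (0.46), on the log2 scale. The nearest gene to Csad was thus farther from it than those of Ahcy and Bhmt were from them.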

How the data were processed

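Total liver RNA was made into libraries with the TruSeq mRNA kit, per the labels' protocols. The deposited values were whole-number read counts per gene symbol, 1 file for each of the 40 libraries, with 5 closing tallies that were kept out of library sizes and tests. GSNAP, DESeq2 1.12.3 and the build mm10 appear in the submitters' processing notes, with no role given. The counting program, its annotation and the use of strand were not given in the sources used here. Of all reads tallied, 41.0% to 51.8% per library were on genes, 20.1% to 28.2% on no feature and 17.1% to 28.7% aligned to more than 1 place.

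From the counts, edgeR 4.0.16 (R 4.3.3) was run with TMM factors, filterByExpr by group and robust quasi-likelihood dispersion, as 1 fit with a coefficient for each group. The 12 comparisons of 2 groups and the 2 interactions were contrasts of that fit. SE is the size of the log2 fold change divided by the square root of F, and intervals are 1.96 SE to each side. Ratios of 2 genes used read counts plus 0.5 and exact permutation tests. Promoter windows came from RefSeq (GRCm38.p6) and exon lengths from GENCODE vM21, in which all 10 symbols matched.

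Alternatives were median-ratio size factors, DESeq2 1.42.0, only the 2 groups of a comparison, sequencing lane as an added term, no robust estimation, no low-count filter, a filter raised to 1 CPM in 4 libraries with a mean count of 10, a ratio pseudocount of 5, the fit without the 7 libraries with pancreatic RNA and each library left out in turn. Library totals with no scaling factor were added after seeing the data. Lane was read from the deposited names, which give no flow cell. The procedure was tested on simulated data. The 10 genes, the lists and the markers were chosen with earlier results of these data known. Named genes were the 10 members, up to 4 called related genes per comparison by size of change among those whose higher group reached 5 CPM, and the 3 genes nearest in pattern to each of the 3 members of widest range. 1 related gene that this rule would name is not reported here.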

Additional observations from a re-analysis of the deposited data

Results flagged for a closer look

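Of 96 sets of values (10 genes and 2 ratios in 8 groups), 8 held a library that stood apart from the rest of its group by the Dixon test at the 95% level, and chance gives about 1 in 20 sets. The 4 in EtOH were Bhmt at 4879 CPM in replicate 20 (next 3248 CPM), Ahcy at 706 CPM in replicate 23 (next 996 CPM), Cth at 453 CPM in replicate 22 (next 344 CPM) and Pemt at 168 CPM in replicate 23 (next 185 CPM). The others were Gnmt at 1972 CPM in Control 28D replicate 11 (next 1682 CPM), Cth at 346 CPM in DDC 0D replicate 6 (next 543 CPM), Cth at 261 CPM in HFD replicate 19 (next 352 CPM) and Pemt at 214 CPM in DDC+HFD replicate 32 (next 178 CPM). The low Bhmt value of DDC+EtOH replicate 41 did not pass that test.

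The difference between DDC-fed and control livers was itself different at the 2 stages for 7 genes, by the interaction term of the edgeR fit. Positive terms, where a decrease with DDC at 0D was smaller or gone at 28D, were those of Cbs (log2 difference of differences 1.42, from −1.35 at 0D to 0.07 at 28D), Csad (1.38, from −1.25 to 0.14), Ahcy (1.14, from −1.43 to −0.29), Gnmt (1.12, from −1.30 to −0.19), Cdo1 (0.77, from −0.83 to −0.06) and Pemt (0.39, from −0.38 to 0.01). The term was negative for Mat2a (−0.34, from 0.13 to −0.22).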

How the results depend on the processing

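Of 41 called results of single genes, 25 kept direction and call in every setting run and with every library left out, and Pemt alone turned direction, from 0.30 to −0.0019 in DDC+Cont against DDC 0D with library totals alone. Counts of called genes that moved by over 1.5 times were as follows. EtOH against HFD went from 2 to 1 with library totals alone and with no low-count filter, and DDC+EtOH against DDC+HFD went from 2 to 1 in those settings, with only the groups compared and without the libraries with pancreatic RNA, and to 4 by DESeq2. DDC+HFD against HFD went from 1 to 0 with lane as a term, with only the groups compared and without the libraries with pancreatic RNA. EtOH against Control 28D went from 4 to 2 with lane as a term, DDC+HFD against DDC+Cont from 1 to 2 with library totals alone and by DESeq2, and with only the groups compared HFD against Control 28D went from 0 to 1 and DDC+EtOH against EtOH from 2 to 1. The causes were not tested. With each library left out, counts ran from 1 to 3 in Control 28D against Control 0D, 4 to 7 in the DDC interaction, 2 to 4 in EtOH against Control 28D, 1 to 2 in EtOH against HFD, 0 to 1 in DDC+HFD against HFD, 1 to 3 in DDC+EtOH against EtOH, 1 to 2 in DDC+HFD against DDC+Cont and 1 to 3 in DDC+EtOH against DDC+HFD. No paired analysis was possible because each replicate number belongs to 1 library of 1 group. The lowest count of these genes in a library was 655.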

Other observations

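In some groups 1 library was lowest for several of the 10 genes, where some library has to be lowest for each gene. DDC 0D replicate 6 was lowest of its group in 8 of 10 genes, Control 0D replicate 1 in 7 and EtOH replicate 23 in 6. DDC+HFD replicate 32 and DDC+EtOH replicate 41 were lowest in 5 each, and no other library in more than 4. These counts are descriptions, since the genes of a library share its depth and scaling.

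The spread between libraries was widest for Csad in HFD, with a coefficient of variation of 46.3%, and for Bhmt in DDC+EtOH, at 45.7%, against 20.6% for Bhmt in DDC+HFD and 24.1% in EtOH. The Bhmt values rested on single libraries: without DDC+EtOH replicate 41 it was 21.0%, and without EtOH replicate 20 it was 3.75%, both computed after seeing the data. In DDC+EtOH the spread was 34.9% for Cdo1, 34.5% for Gnmt and 30.1% for Mat1a (31.6%, 27.7% and 25.2% without replicate 41), while Mat2a varied by 10.6% and Csad by 16.3%. In DDC+HFD the same figures were 5.52% for Cdo1, 12.6% for Gnmt, 25.5% for Mat1a, 9.00% for Mat2a and 26.6% for Csad. No test of the spread was made.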
